A study of Mus musculus with 79 samples.

Results

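Caudal vertebrae (CV), the bones of the tail, were compared with lumbar vertebrae (LV), the bones of the lower back, in the same 5 female mice at baseline. These 10 of the 79 libraries of the series, from 5 of its 51 mice, were chosen by their labels alone and comprise the CV and the LV of every female WT mouse that received PBS. The mice were BMAd-*Pnpla2*+/+, that is, WT littermates in a line of mixed SJLxC57BL6 background whose mutants lose *Pnpla2* (the lipase ATGL) from bone marrow adipocytes. They were 4 to 5 months old and had received PBS into the brain (intracerebroventricular, ICV) for 9 days. By the study's methods, mice were housed singly after this surgery and later pair-fed, with less food than control mice usually eat. The study treats CV as filled with marrow fat and used LV as a control without fat, and it also sequenced inguinal white adipose tissue (iWAT) of these 5 mice. Tissue was homogenised without separating its cells, so every library mixes marrow with bone, cartilage and any attached tissue.

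Red marrow makes blood: erythroid cells, granulocytes, megakaryocytes and B cells arise there from stem and progenitor cells that depend on stromal cells. Yellow marrow is filled with adipocytes, and the marrow fat of the mouse tail is known for forming early and persisting. Position along the spine is marked by the Hox genes, transcription factors whose paralogues with low numbers are used toward the head and those with high numbers toward the tail.

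The 5 CV libraries held 17594259 to 18042292 counts on genes and the 5 LV libraries 28717516 to 29520248, so every LV library was deeper and depth cannot be told apart from tissue. Values per mouse are TMM-normalised CPM, counts relative to the size of the library, always in the order of mice 1 to 5. TPM, which divides by transcript length, is used only to set levels of different genes or tissues side by side. Mice 1, 2 and 3 carry numbers of 1 series and mice 4 and 5 of another. Besides tissue, the CV and LV libraries differed in something that followed the set of libraries. The pseudogene *Rpl31-ps12* was at 63.4 to 280.1 CPM in all 18 female CV and at 10.9 to 78.2 CPM in all 10 iWAT libraries, against at most 0.203 CPM in the 18 LV and 0.163 CPM in the 33 male CV libraries. On average 3 other features followed the same split. That of *Gm4963* was as clean, whereas single libraries overlapped for *Gm13653* and *Gm43247*. The part of this in other differences was not tested directly, and both main counts are therefore also given, at the end, with male CV libraries in place of the female ones.

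With edgeR's quasi-likelihood test and mouse as a block, 5075 of 14554 tested genes were higher in CV, 34.9% of those tested, and 4698 were lower, or 32.3%. A call required an adjusted p-value below 0.05 and a log2 fold change of at least 0.5. The change was at least 2 on the log2 scale for 1940 higher genes (13.3%) and 1299 lower genes (8.93%). CV and LV values did not overlap for 5497 genes that were higher in CV (37.8%) and 5499 that were lower (37.8%). The counts of each list are read against these shares. To be tested, a gene needed a mean of 0.4 TPM over the 10 libraries. A gene near 0 in 1 tissue therefore passed only through the other and had to be higher there. Values of such genes, in either direction, are a description. In homogenised tissue, fewer cells of a type and less RNA per cell cannot be told apart. Higher genes made up 51.9% of calls with TMM, 64.4% when libraries were scaled by total counts and 85.9% with limma on TPM, and the median log2 fold change of all tested genes was 0.01, 0.31 and 0.90 respectively (1.08 on TPM with a pseudocount of 0.1 rather than 1). The 4 adult globin genes with *S100a8* and *S100a9* took 39.9% to 45.4% of all TPM in LV libraries and 0.559% to 1.49% in CV libraries. Small falls with TMM could therefore turn on TPM. Of the genes named in the text and checked for it, this was so for *Dgat1*, *Dio2*, *Hcar2*, *Cd79a*, *Adgre1*, *Vwf*, *Sele*, *Bglap*, *Bglap2*, *Ifitm5*, *Ctsk*, *Krt18*, *Meis1*, *Pbx2*, *Pknox1*, *Car9*, *Rbm3*, *Rps18*, *Cox6c* and *Cycs*, which are lower in CV relative to most other genes rather than per transcript. *Cd3e* and *Hoxc8*, both not called with TMM, also went from under 0 to above 0. *Abhd5*, *Cebpb*, *Fabp5*, *Pbx4*, *Hmox1* and *F13a1*, also under 0 with TMM, were not checked in this way.

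**Figure D1:**
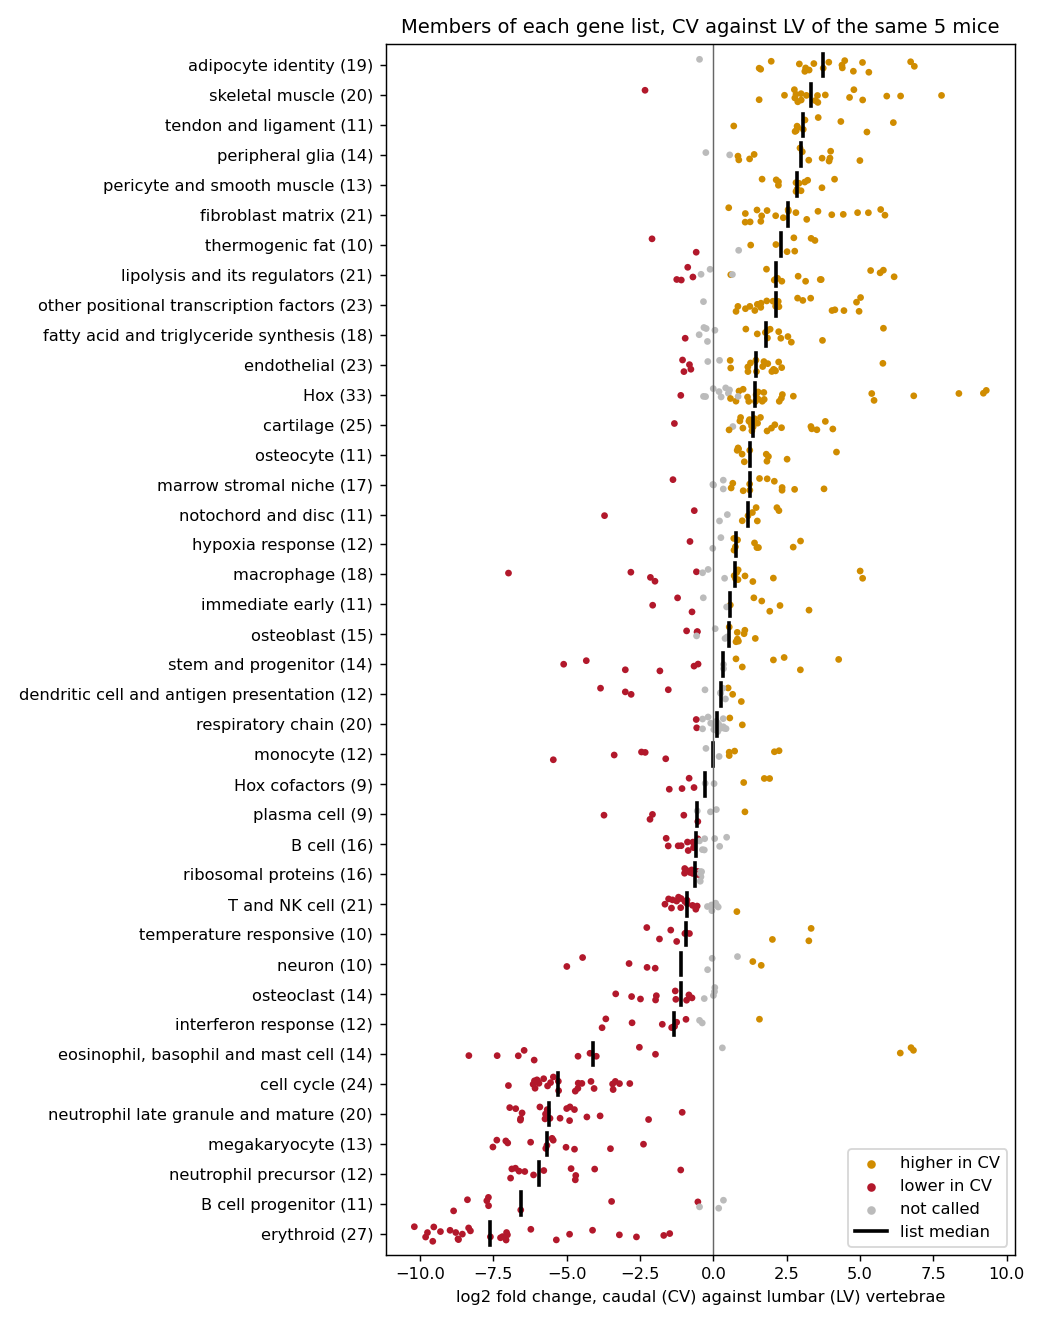
Log2 fold change of CV against LV for every tested member of each gene list, with the number of tested members in parentheses. Each point is 1 gene, coloured by whether it was called higher in CV, called lower or not called, and the bar marks the list median. Adipocyte, muscle, tendon and peripheral glia lists lie to the right (medians of 2.99 to 3.75) and the erythroid list lies farthest left (median -7.61).

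Genes of the mature adipocyte stood far higher in CV. Of 19 adipocyte identity genes, 18 rose and none fell, with a median log2 fold change of 3.75 against 0.01 over all tested genes. The lipid droplet coat protein perilipin 1, *Plin1* (chromosome 7, 79721164 to 79732904 in GRCm38.p6), measured 247, 315, 258, 135 and 199 CPM in CV and 0.821, 2.42, 0.983, 2.11 and 3.81 CPM in LV. Every CV library was above every LV library, and the log2 fold change was 6.85 (SE 0.38, edgeR adjusted p = 5.54e-07). The hormone leptin, *Lep*, measured 67.4, 84.0, 53.1, 32.2 and 76.8 CPM in CV and 0.485, 0.663, 0.291, 0.478 and 1.03 CPM in LV, a log2 fold change of 6.73, with mouse 4 lowest in CV. Adipsin (*Cfd*), the droplet protein *Cidec*, adiponectin (*Adipoq*) and the fatty acid carrier *Fabp4* rose by 5.30, 5.09, 4.77 and 3.15 on the log2 scale. The one member that was not called was *Cebpb* (-0.47), a transcription factor that many marrow cells share. Summed over the list, TPM was 14120 to 19404 in CV, 580 to 936 in LV and 77277 to 102122 in iWAT of the same mice. In TPM, *Plin1* stood at 240.3 in CV, 0.982 in LV and 1005 in iWAT, and *Adipoq* at 83.5, 1.42 and 594, so the fat-filled vertebra lay between the other tissues for both.

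Most genes of lipolysis were also higher in CV, although the brake and the receptors did not follow the lipases evenly. Of 21 tested lipolysis genes, 14 rose and 4 fell (median 2.15). The lipases that act in order on stored triglyceride all rose: *Pnpla2* by 2.33, hormone-sensitive lipase *Lipe* by 2.89 and monoacylglycerol lipase *Mgll* by 1.81 on the log2 scale. *Pnpla2* measured 377, 376, 325, 293 and 385 CPM in CV and 62.7, 69.1, 57.6, 70.1 and 90.6 CPM in LV, with no overlap. The ATGL inhibitor *G0s2* measured 38.6, 61.9, 39.4, 30.5 and 37.3 CPM in CV and 25, 29.8, 24.3, 26.9 and 28.7 CPM in LV, a log2 fold change of only 0.59 (SE 0.12, edgeR adjusted p = 0.00163). Its lowest CV value lay just above its highest LV value, and without mouse 2, which had the most in both tissues, the change was 0.47 and no longer met the threshold. The natriuretic peptide clearance receptor *Npr3* measured 95, 98.3, 78.4, 74.5 and 74.0 CPM in CV and 0.970, 1.36, 1.06, 2.31 and 1.87 CPM in LV, and rose by 5.80, far more than *G0s2*. The droplet protein *Plin4*, the amine oxidase *Aoc3* and the anti-lipolytic adenosine receptor *Adora1* rose by 5.36, 5.69 and 3.68.

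The fat-cell receptor *Adrb3* did not reach the mean of 0.4 TPM that a gene needed to be tested, and *Adrb1* was not called (0.65). Among the genes that fell were the prostaglandin E receptor *Ptger3* (-1.25), the nicotinic acid receptor *Hcar2* (-0.88) and the ATGL co-activator *Abhd5* (-0.70). *Ptger3* and *Hcar2* are both read in iWAT, at 64.6 and 18.1 TPM, against 2.32 and 2.5 TPM in CV.

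**Figure D2:**
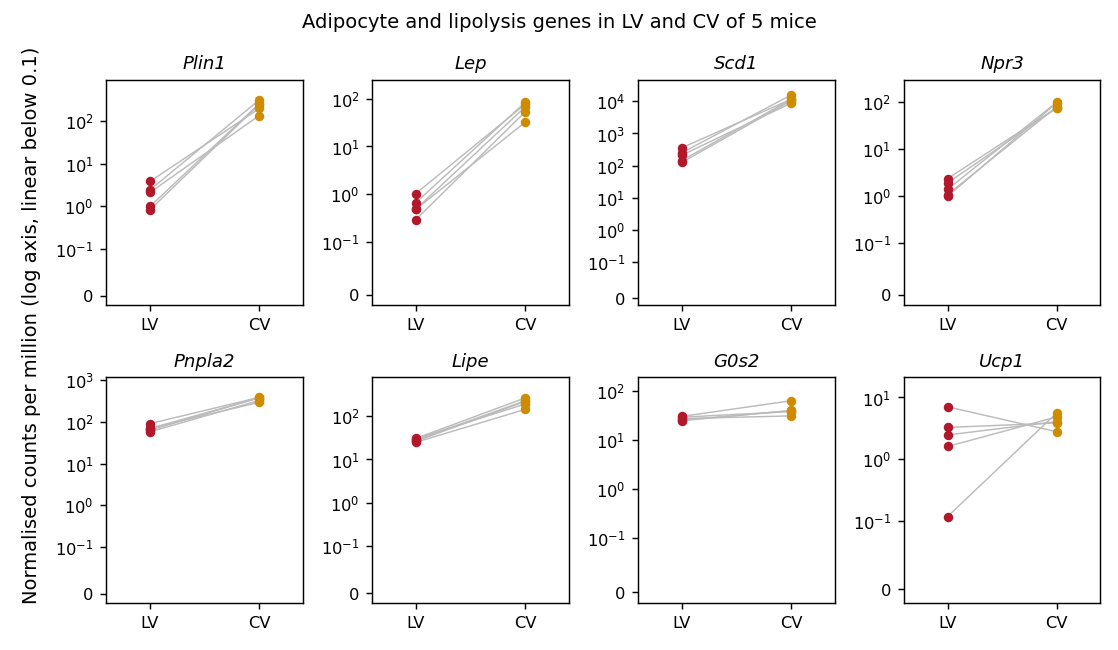
TMM-normalised CPM of 8 adipocyte and lipolysis genes in LV and CV, with 1 point per library and a line joining the tissues of each of 5 mice, on a log axis that is linear below 0.1. *Plin1*, *Lep*, *Scd1* and *Npr3* separate widely, *Pnpla2* and *Lipe* less so, *G0s2* only just, and *Ucp1* overlaps.

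Fatty acid and triglyceride synthesis followed the adipocyte genes, with 12 of 18 genes higher and 1 lower (median 1.80). The stearoyl-CoA desaturase *Scd1* measured 11427, 15566, 10369, 8697 and 11522 CPM in CV and 145, 251, 126, 212 and 357 CPM in LV, a log2 fold change of 5.80. Fatty acid synthase (*Fasn*), acetyl-CoA carboxylase (*Acaca*), the carbohydrate-sensing factor *Mlxipl* and the insulin-responsive glucose transporter *Slc2a4* rose by 2.66, 2.30, 3.72 and 2.54. *Dgat1*, which seals fatty acids into triglyceride, fell by 0.96 on the log2 scale, from 73.7 to 109 CPM in LV to 38.4 to 52.6 CPM in CV. On TPM its change turned to 0.057. *Fasn* reached 106 TPM in CV and 3205 TPM in iWAT, a wider gap between those tissues than for *Scd1* (4255 and 19691 TPM). Of 10 tested genes of thermogenic fat, 7 rose and 2 fell, but the uncoupling protein that defines brown fat was not called. *Ucp1* measured 4.07, 5.64, 4.84, 3.86 and 2.78 CPM in CV and 2.46, 0.117, 1.60, 3.27 and 7.05 CPM in LV (log2 fold change 0.86, SE 0.67, edgeR adjusted p = 0.253), with wide overlap, although among mice 1, 2 and 3 alone it was called higher (1.96), as it was on TPM (2.16). The respiratory subunits *Cox8b* and *Cox7a1* rose by 2.77 and 2.51. Both are also made by muscle, and in CV both were lower in mice 4 and 5 than in the other mice, as was the muscle gene *Acta1*. The part of muscle in their rise was not tested. The remaining genes of the list that rose were *Ppargc1a*, *Kcnk3*, *Otop1*, *Prdm16* and *Cidea* (3.46, 3.33, 2.74, 2.13 and 1.27). With each mouse left out in turn, 6 to 7 genes of the list rose. *Tmem26* and the deiodinase *Dio2* fell (-2.09 and -0.59).

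Erythroid genes gave the widest separation of any list. All 27 fell, 25 of them by at least 2 on the log2 scale, with a median of -7.61. The alpha-haemoglobin chaperone *Ahsp* measured 0.360, 2.16, 1.29, 0.852 and 0.844 CPM in CV and 1048, 1196, 1122, 1570.0 and 1341 CPM in LV, a log2 fold change of -10.20 (SE 0.34, edgeR adjusted p = 4.30e-08). The Rh blood group genes *Rhd* and *Rhag* and the erythroid nuclear protein *Hemgn* also fell (-9.81, -9.54 and -9.57). Globins fell less. The beta globin *Hbb-bs* measured 262, 320.2, 365, 439.6 and 674 CPM in CV and 49160.1, 52562, 44121, 68519 and 50401 CPM in LV, a change of -7.07. In CV, *Hbb-bs*, *Hba-a1* and *Alas2* were highest in mouse 5, whereas *Ahsp* and *Rhag* were highest in mouse 2. Globin mRNA is also carried by circulating red cells, and the part of blood in the CV values was not tested. At 1949 TPM, *Hbb-bs* in CV stood close to its level in iWAT (1439 TPM), against 108796 TPM in LV.

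The promoters of these erythroid genes are shown because every member fell, and GATA factors are the known regulators of red cell genes. The 250 bases before the start site were taken from RefSeq (GRCm38.p6), and the letters AGATAA or AGATAG and also TGATAA or TGATAG were searched on both strands. A promoter was found for 19 of the 27 erythroid genes, of which 14 (73.7%) held at least 1 match. The same letters occurred in 2060 of the 11522 tested genes with a promoter (17.9%), in 2 of 20 cell cycle genes and in 3 of 14 adipocyte identity genes. The 3 erythroid genes with a match that fell most, and the one with the highest level in LV, are printed 5′ to 3′ on the gene's strand with the matches in capitals. A match describes the letters only and is not a measured binding site.
Rhd (chr4:134864286-134864535, plus strand): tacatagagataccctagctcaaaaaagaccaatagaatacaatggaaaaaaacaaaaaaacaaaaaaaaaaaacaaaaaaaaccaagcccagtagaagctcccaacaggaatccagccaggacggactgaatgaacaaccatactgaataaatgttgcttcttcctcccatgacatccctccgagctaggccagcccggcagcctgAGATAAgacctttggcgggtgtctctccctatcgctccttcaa
Hemgn (chr4:46404184-46404433, minus strand): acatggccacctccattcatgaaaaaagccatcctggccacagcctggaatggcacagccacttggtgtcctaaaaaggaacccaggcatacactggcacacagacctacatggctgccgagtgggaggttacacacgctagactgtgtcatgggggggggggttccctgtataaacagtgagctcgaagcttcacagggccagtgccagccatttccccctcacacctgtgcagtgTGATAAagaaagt
Rhag (chr17:40810899-40811148, plus strand): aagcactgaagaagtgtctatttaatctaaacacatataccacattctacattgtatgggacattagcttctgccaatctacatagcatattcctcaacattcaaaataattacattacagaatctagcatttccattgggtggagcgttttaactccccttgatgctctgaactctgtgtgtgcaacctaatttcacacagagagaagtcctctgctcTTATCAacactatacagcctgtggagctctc
Hbb-bs (chr7:103827929-103828178, minus strand): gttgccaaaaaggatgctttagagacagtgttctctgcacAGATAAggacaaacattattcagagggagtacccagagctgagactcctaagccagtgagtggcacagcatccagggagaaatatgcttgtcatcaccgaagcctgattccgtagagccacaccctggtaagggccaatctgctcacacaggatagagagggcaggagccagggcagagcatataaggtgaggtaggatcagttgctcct
Between the match and the start lay 37 bases in *Rhd*, 7 in *Hemgn*, 25 in *Rhag* and 204 in *Hbb-bs*.

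Granulocyte genes fell nearly as far. All 12 genes of neutrophil precursors and all 20 of late granules and mature neutrophils fell, with medians of -5.96 and -5.62. Neutrophil elastase (*Elane*), made by promyelocytes, measured 4.17, 13.3, 30.1, 5.56 and 2.83 CPM in CV and 942, 1004, 822, 1095 and 968 CPM in LV, a log2 fold change of -6.92 (SE 0.59). The calprotectin subunit *S100a8*, made at later stages, measured 90.2, 291, 436, 115 and 91.9 CPM in CV and 13822, 16930.0, 13778, 15055 and 15491 CPM in LV, a change of -6.52. The surface marker of mature neutrophils *Ly6g* changed by -6.58. In CV, mouse 3 had the highest value for *Elane*, *S100a8*, *S100a9*, *Mpo*, *Ngp*, *Camp* and *Ly6g*, followed by mouse 2, and both tissues stayed far apart in these mice. Megakaryocyte genes also fell without exception, 13 of 13, with a median of -5.68. The platelet receptor subunit *Gp9* and the platelet chemokine *Ppbp* changed by -7.08 and -7.52 on the log2 scale, and *Pf4*, which had the smallest fall of the list, by -2.38.

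All 24 cell cycle genes fell, each by at least 2, with a median of -5.28. The proliferation antigen *Mki67* measured 12, 24.6, 41.5, 20.5 and 21.3 CPM in CV and 1288, 1178, 1296, 1379.7 and 1057 CPM in LV, and the mitotic ubiquitin ligase *Ube2c* measured 1.70, 3.02, 3.66, 1.4 and 1.34 CPM in CV and 245, 269, 244, 355 and 282 CPM in LV. Both were again highest in CV of mouse 3. In TPM summed over the list, CV (193 to 278) was level with iWAT (215 to 256), and LV stood at 2320 to 2568.

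Eosinophil and basophil genes fell, but genes of connective tissue mast cells rose. Of 14 tested genes of these lineages, 10 fell and 3 rose. The eosinophil granule proteins *Prg2* and *Epx* fell (-7.37 and -6.45), and the basophil protease *Mcpt8* measured 0.463, 1.36, 0.927, 0.301 and 0.248 CPM in CV and 68.6, 69.4, 82.1, 69.4 and 39.9 CPM in LV. The 3 genes that rose were the mast cell chymases and tryptase *Mcpt4*, *Cma1* and *Tpsb2* (6.74, 6.37 and 6.82). *Mcpt4* measured 41.2, 28.7, 37.6, 40.4 and 30.5 CPM in CV and 0.0746, 0.312, 0.109, 0.558 and 0.610 CPM in LV, a direction opposite to that of *Mcpt8* in all 5 mice. *Cpa3*, which basophil precursors and mast cells share, overlapped between the tissues (0.31, edgeR adjusted p = 0.135).

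In the B lineage, the precursor genes fell far and the mature genes little. Of 11 B cell progenitor genes, 8 fell and none rose (median -6.57). Those near 0 in CV, among them *Igll1*, *Rag1* and *Vpreb2*, passed the filter only through LV and had to be lower in CV. The surrogate light chain *Igll1* measured 0, 0, 0.258, 0 and 0.0497 CPM in CV and 16.3, 22.9, 26.4, 33.7 and 54.5 CPM in LV, and the recombinase *Rag1* measured 0.103, 0, 0.206, 0.1002 and 0 CPM in CV and 13.3, 14.9, 26.7, 11.2 and 25.7 CPM in LV. For the surrogate light chain *Vpreb2*, 1 count was read in all CV libraries against 416 in all LV libraries, a ratio of 313 with a 95% counting interval of 55.9 to 12401. The mature B cell receptor subunit *Cd79a* measured 54.2, 74.4, 87.7, 75.9 and 53.8 CPM in CV and 91.8, 93.5, 97.0, 129 and 153 CPM in LV, and fell by 0.70. Of 16 B cell genes, 9 fell and none rose, with none past 2 on the log2 scale. The median of these 16 was -0.60 with TMM, -0.31 with total counts and 0.44 on TPM, so the direction of mature B cell genes against all other RNA depended on the scaling, whereas that of the progenitor genes did not (-3.63 on TPM).

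Plasma, T and NK cell genes moved less than those of blood cell precursors. The joining chain of secreted antibody, *Jchain*, measured 197, 205, 434, 174 and 37.6 CPM in CV and 667, 777, 877, 785 and 681.03 CPM in LV, with mouse 5 lowest and mouse 3 highest in CV, and *Mzb1* fell by 2.08. *Tent5c* fell by 3.73, but it is used by erythroid cells as well. *Sdc1*, a plasma cell marker that other tissues share, rose by 1.08. Of 9 plasma cell genes 5 fell and 1 rose, and of 21 T and NK cell genes 14 fell and 1 rose. The medians were -0.55 and -0.89 with TMM and 0.49 and 0.24 on TPM, so both directions turned with the scaling. *Cd3e* measured 1.60, 2.21, 2.27, 1.5 and 1.54 CPM in CV and 1.87, 1.64, 1.86, 2.11 and 1.91 CPM in LV, with overlapping tissues (-0.05, SE 0.19), and the NK receptor *Ncr1* fell by 1.53. *Cd28* was the 1 T cell gene that rose (0.80).

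Monocyte, macrophage and dendritic cell genes split within each list. Among 12 monocyte genes 5 rose and 5 fell, with a median of -0.03 that turned to 1.07 on TPM, and without mouse 3 only 3 rose. The inflammatory monocyte genes *Ly6c2* and *Ccr2* fell (-5.46 and -2.33), and *F13a1* was not called (-0.25). The monocyte genes that rose were *S100a4*, *Klf4*, *Fn1*, *Cx3cr1* and *Csf1r* (2.24, 2.08, 0.73, 0.54 and 0.54). Among 18 macrophage genes 10 rose and 5 fell. Those that fell include *Cd5l*, *Spic* and the iron exporter *Slc40a1*, known from macrophages that recycle red cells, and those that rose include *Lyve1* and *Folr2*, known from macrophages around vessels. *Cd5l* measured 0.103, 0.252, 1.18, 0.601 and 0.149 CPM in CV and 38, 60.8, 75.5, 44.4 and 68.4 CPM in LV. *Lyve1* measured 121, 133, 117, 104 and 141 CPM in CV and 3.51, 3.08, 3.13, 3.47 and 4.99 CPM in LV, the reverse order, although lymphatic endothelium also makes it. The complement gene *C1qa* and the mannose receptor *Mrc1* rose by 0.79 and 0.84, and the general macrophage marker *Adgre1* fell by 0.58. *Vsig4*, *Cd163*, *Siglec1* and *Mertk* also rose, by 2.05, 1.35, 0.75 and 0.71, and *Hmox1* fell by 1.99. Of 12 dendritic cell and antigen presentation genes, 3 rose and 4 fell, the plasmacytoid marker *Siglech* among them (-1.54), while the class II gene *H2-Ab1* and its activator *Ciita* rose by 0.66 and 0.95.

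**Figure D3:**
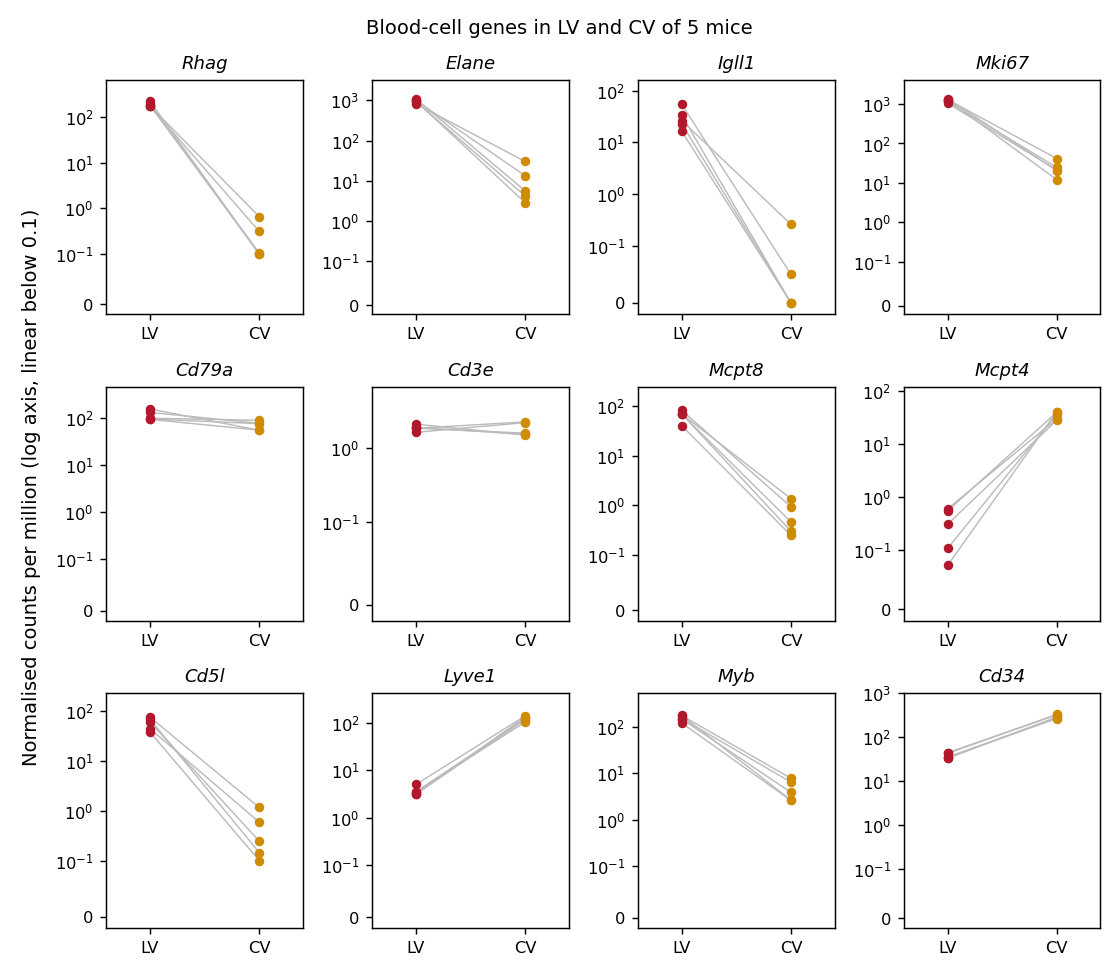
TMM-normalised CPM of 12 blood-cell genes in LV and CV, with 1 point per library and a line joining the tissues of each of 5 mice, on a log axis that is linear below 0.1. Genes of red cell, neutrophil, B cell and basophil precursors, proliferation, *Cd5l* and *Myb* drop by 1 to several decades from LV to CV, *Cd79a* and *Cd3e* shift little, and *Mcpt4*, *Lyve1* and *Cd34* climb.

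Stem and progenitor genes did not move together. Of 14, 6 rose and 6 fell. *Myb*, which immature blood cells require, measured 2.62, 6.39, 7.73, 3.86 and 2.58 CPM in CV and 174, 149.97, 174, 146 and 119.9 CPM in LV, and *Slamf1* and the receptor *Flt3* fell (-4.33 and -3.00). *Cd34* and *Procr*, which endothelial and stromal cells also make, rose by 2.97 and 4.27. The receptor *Kit*, shared by progenitors and mast cells, rose by 0.99, with 99.2, 89.5, 95.2, 97.0 and 95.4 CPM in CV and 51.5, 48.2, 44.7, 49.6 and 46.7 CPM in LV.

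Vessel and stromal genes were mostly higher in CV. Of 23 endothelial genes, 17 rose and 4 fell (median 1.45), and all 13 pericyte and smooth muscle genes rose (median 2.86). The endothelial junction genes *Pecam1* and *Cdh5* rose by 1.47 and 1.68, with *Pecam1* at 197, 199, 197, 204 and 202 CPM in CV and 69.8, 71.6, 68.8, 71.3 and 80.0 CPM in LV. The mucosal addressin *Madcam1* rose most, by 5.78, on only 12 counts in all LV libraries. The 4 genes that fell were von Willebrand factor *Vwf* (-1.05), which megakaryocytes share, *Icam2* (-1.0), the selectin *Sele* (-0.82) and *Fabp5* (-0.77). Smooth muscle myosin *Myh11* and the pericyte gene *Rgs5* rose by 3.70 and 2.86. Of 17 genes of the marrow stromal niche, 12 rose and 1 fell. *Cxcl12*, the chemokine that holds stem cells in the marrow, measured 1154, 1288, 1762, 1533 and 1226 CPM in CV and 1347, 1368, 1349, 1372 and 1425 CPM in LV, a log2 fold change of 0.00 (SE 0.11), and the tissues overlapped. The stem cell factor *Kitl* and the leptin receptor *Lepr* rose by 0.66 and 0.61 (0.48 for *Lepr* without mouse 2, which was not called), the chemokine *Cxcl14* and the receptor *Pdgfra* by 3.77 and 2.77, and *Vcam1*, an adhesion molecule of niche stroma and of macrophages, fell by 1.38.

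Among bone cells, osteocyte genes were higher in CV, osteoclast genes were lower and osteoblast genes were mixed. All 11 osteocyte genes rose (median 1.24), with the Wnt inhibitor sclerostin, *Sost*, at 85.5, 84.2, 74.0, 86.1 and 99.1 CPM in CV and 24.2, 19.8, 18, 32.0 and 29.0 CPM in LV. *Mepe* rose by 0.84 with mouse as a block and was not called without it (0.83); mice 4 and 5 were high in both tissues (45.7, 51.8, 53.8, 106 and 128 CPM in CV, 24.4, 30, 28.4, 64.0 and 70.0 CPM in LV). Of 15 osteoblast genes 8 rose and 3 fell. *Sp7*, the factor that commits cells to bone, rose by 1.07 and *Bmp3* by 1.43, while the late genes *Bglap*, *Bglap2* and *Ifitm5* fell (-0.56, -0.91 and -0.55), the first and the last only just past the threshold and not in every set of 4 mice. *Col1a1* measured 4833, 3147, 7061, 7917 and 11357 CPM in CV and 2479.6, 2236, 3903, 4293 and 6189 CPM in LV and rose by 0.81 within mice. Its change was -0.66 with male CV libraries in place of the female ones, and that of the osteocyte gene *Dmp1* (1.05) was -0.18. In that comparison 3 osteoblast genes rather than 8 were higher. Of 14 osteoclast genes, 10 fell and none rose (median -1.10 with TMM and -0.02 on TPM). Tartrate-resistant acid phosphatase, *Acp5*, measured 239, 322, 776, 319.7 and 289.5 CPM in CV and 1150.0, 1127, 1397, 1519 and 1817 CPM in LV, with mouse 3 far above the other CV libraries, as it was for *Ctsk* and *Atp6v0d2*.

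Cartilage, tendon and fibroblast genes were higher in CV. Of 25 cartilage genes 23 rose and 1 fell (median 1.36), with the proteoglycan aggrecan, *Acan*, at 671, 708, 705, 902 and 811 CPM in CV and 278, 195, 267, 225 and 288 CPM in LV. Lubricin (*Prg4*), made at joint surfaces, and *Col10a1*, made by hypertrophic chondrocytes, rose by 4.07 and 3.82. *Col10a1* measured 114, 95.2, 72.5, 453.1 and 264 CPM in CV, with mice 4 and 5 highest, and 11.2, 7.33, 14.2, 10.1 and 14 CPM in LV. The transcription factor *Sox6* fell by 1.33, and erythroid cells also use it. Of 11 tested notochord and disc genes 7 rose and 2 fell; *T* (brachyury) rose by 0.99 and the sclerotome factor *Pax1* by 2.24, while *Cd24a* and *Krt18* fell (-3.71 and -0.65), and *Shh* and *Noto*, which define the notochord, were under the filter, *Shh* with 5 counts in all CV and 64 in all LV libraries. All 11 tendon and ligament genes rose (median 3.07), among them the factor *Scx* (2.79) and tenomodulin, *Tnmd*, at 72.6, 65.8, 57.5, 70.3 and 70.0 CPM in CV and 1.60, 1.87, 1.31, 1.55 and 2.63 CPM in LV. All 21 fibroblast matrix genes rose (median 2.55), including decorin (*Dcn*, 3.57), *Dpt* (5.29) and *Mfap5* (5.85). Outside the lists, the secreted matrix protein cochlin, *Coch*, measured 554, 198, 192, 816 and 822 CPM in CV, lowest in mice 2 and 3, and 0, 0.312, 0.0728, 0 and 0.114 CPM in LV, a log2 fold change of 12.18. Myocilin, *Myoc*, rose by 8.55 and stood at 3175 TPM in CV, 4.02 TPM in LV and 28.0 TPM in iWAT.

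Skeletal muscle genes were abundant in CV libraries. Summed over 20 muscle genes, TPM was 36167 to 73347 in CV and 1452 to 4926 in LV, and skeletal actin, *Acta1*, was the most abundant gene of CV on average, at 9921 TPM. *Acta1* measured 9776, 10532, 9354, 3113 and 3185 CPM in CV and 657, 1002, 258, 561 and 424 CPM in LV, with mice 4 and 5 lowest in CV and mouse 3 lowest in LV. Of the 20 genes 19 rose and 1 fell, and the genes that rose were of slow and of fast fibres. The fast myosins *Myh1* and *Myh2* rose by 4.79 and 4.64. The slow myosin *Myh7* measured 1463, 1535, 1427, 1099 and 893 CPM in CV and 3.36, 0.702, 0.182, 63.3 and 29.2 CPM in LV, where mice 4 and 5 were highest, and rose by 7.78 (SE 1.4), and the slow troponin *Tnni1* rose by 6.39. Another fast myosin, *Myh4*, was the gene that fell. It measured 95.3, 65.6, 275, 11.3 and 25.3 CPM in CV and 303, 429.8, 114, 275 and 259 CPM in LV and fell by 2.33 (edgeR adjusted p = 0.0229) with overlap. That call was lost without mouse 2, 4 or 5 (-2.20, -1.74 and -1.99) and on TPM (-1.03). The part of attached muscle in other differences was not tested. Among mice 1, 2 and 3 alone 5014 genes were higher and 4707 lower, and among mice 4 and 5 the counts were 4998 and 4752. Mice 4 and 5 had less *Acta1* in CV but still far more than in LV, so these counts cannot show that part.

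Schwann cell genes were higher in CV and neurofilament genes lower. Of 14 peripheral glia genes 12 rose and none fell (median 2.99), with the glial transcription factor *Sox10* at 7.36, 5.33, 5.77, 4.61 and 7.0 CPM in CV and 0.224, 0.624, 0.437, 1.04 and 0.876 CPM in LV. Of 10 tested neuron genes 5 fell and 2 rose, with a median of -1.09 that was 0.17 on TPM. The neurofilament *Nefl* measured 0.309, 0.704, 0.721, 0.250 and 0.447 CPM in CV and 5.67, 2.77, 30.2, 40.4 and 14.2 CPM in LV, highest in LV of mice 3 and 4, and fell by 5.0. With male CV libraries its change was -1.72, which was not called, and 2 neuron genes rather than 5 were lower. *Gfap*, made by astrocytes and some Schwann cells, was at -4.86 and at -2.57 with male CV libraries, called lower in both, whereas *Aqp4* overlapped, *Olig1* rose (1.91) and the oligodendrocyte gene *Mog* was under the filter in both tissues. *Npy* and *Uchl1* were the neuron genes that rose (1.63 and 1.34), though neither did without mouse 2 (1.42 and 0.94), *Npy* without mouse 5 (1.25) or *Uchl1* without mouse 1 (0.999). The defining keratins of epidermis, *Krt5* and *Krt14*, had at most 1 count in all libraries of either tissue, yet 4 of 6 tested epidermis genes rose. *Krtdap* measured 21.5, 19.7, 14.8, 20.5 and 24.7 CPM in CV and 0, 0, 0.0364, 0 and 0.114 CPM in LV, and *Krt10*, *Dsp* and *Trp63* rose by 1.67, 1.32 and 3.76.

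Hox genes of the tail end of the clusters were read in CV and hardly at all in LV. Of 39 Hox genes, 33 were tested, 23 rose and 1 fell, with a median of 1.44 against 0.01 over all tested genes. The 4 clusters lie on chromosomes 6 (*Hoxa*, 52155367 to 52260880), 11 (*Hoxb*, 96194316 to 96368254), 15 (*Hoxc*, 102921131 to 103036856) and 2 (*Hoxd*, 74668225 to 74765142) of GRCm38.p6. By paralogue number, 3 of 9 tested genes of paralogues 1 to 4 rose and 1 fell (median 0.51), 12 of 15 of paralogues 5 to 9 rose (median 1.16), and 2 of 3 of paralogue 10 rose (median 2.25). Of the 9 genes of paralogues 11 to 13, 6 were tested. These 6 were near 0 in LV and passed the filter on mean TPM only through CV, so they had to be higher there, and their values are a description. The summed mean level of all 9 was 62.6 TPM in CV and 0.284 TPM in LV, against 93.9 and 19.9 TPM for paralogues 5 to 9.

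*Hoxc13* measured 14.4, 11.3, 10.5, 10.7 and 12.3 CPM in CV and 0.0746, 0.0390, 0, 0 and 0.0381 CPM in LV, a log2 fold change of 8.37 (SE 0.29). *Hoxc12* measured 9.73, 6.69, 9.17, 5.86 and 7.0 CPM in CV, and its 758 counts there stood against 1 count in all LV libraries, a ratio of 1007 with a 95% counting interval of 180 to 39817. *Hoxa13* measured 3.86, 2.42, 1.96, 5.01 and 4.07 CPM in CV and had no count in any LV library, so that with a floor of 3 counts over the LV group it was at least 152-fold higher in CV. *Hoxb13* rose by 6.83, *Hoxa11* by 5.48 and *Hoxc11* by 5.40. The *Hoxd* genes did not follow: *Hoxd11*, *Hoxd12* and *Hoxd13* were under the filter, with 16, 0 and 16 counts in all CV libraries and 8, 1 and 0 in all LV libraries. *Hoxd10* was not called (0.84, SE 0.45) unless mouse 3 was left out (1.26). The 10 noncoding RNAs of the Hox loci found in the table were listed at 0 in all 10 libraries.

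Levels per length placed CV against both other tissues. *Hoxc10* stood at 22.0 ± 4.22 TPM (SD, n = 5) in CV, 1.54 ± 0.278 TPM in LV and 17.2 TPM in iWAT, and *Hoxa10* at 18.9 ± 2.17, 1.87 ± 0.257 and 9.17 TPM, so paralogue 10 was shared by the tail and the inguinal fat pad. *Hoxc12* stood at 18.9 ± 3.52 TPM in CV and at 0 in iWAT, *Hoxc13* at 9.25 ± 1.21 TPM and 0, and *Hoxa11* at 8.62 ± 1.74 TPM and 0.0320 TPM. *Hoxc6* and *Hoxc8* showed another order, at 2.80 and 1.65 TPM in CV, 1.32 and 1.04 TPM in LV and 22.8 and 28.8 TPM in iWAT, and neither was called between CV and LV (0.19 and -0.34). In CV, *Hoxc10*, *Hoxa10*, *Hoxc12* and *Hoxb7* (16.9 ± 3.21 TPM) had the highest means, and the ranges of these 4 over the mice overlapped. The 1 Hox gene that fell was *Hoxb4*, at 3.71, 3.62, 3.91, 4.21 and 3.23 CPM in CV and 7.76, 8.07, 7.79, 8.57 and 8.12 CPM in LV, a change of -1.11, although its TPM was nearly equal, at 2.75 ± 0.276 and 2.77 ± 0.120. It is known from blood progenitors as well as from axial patterning.

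**Figure D4:**
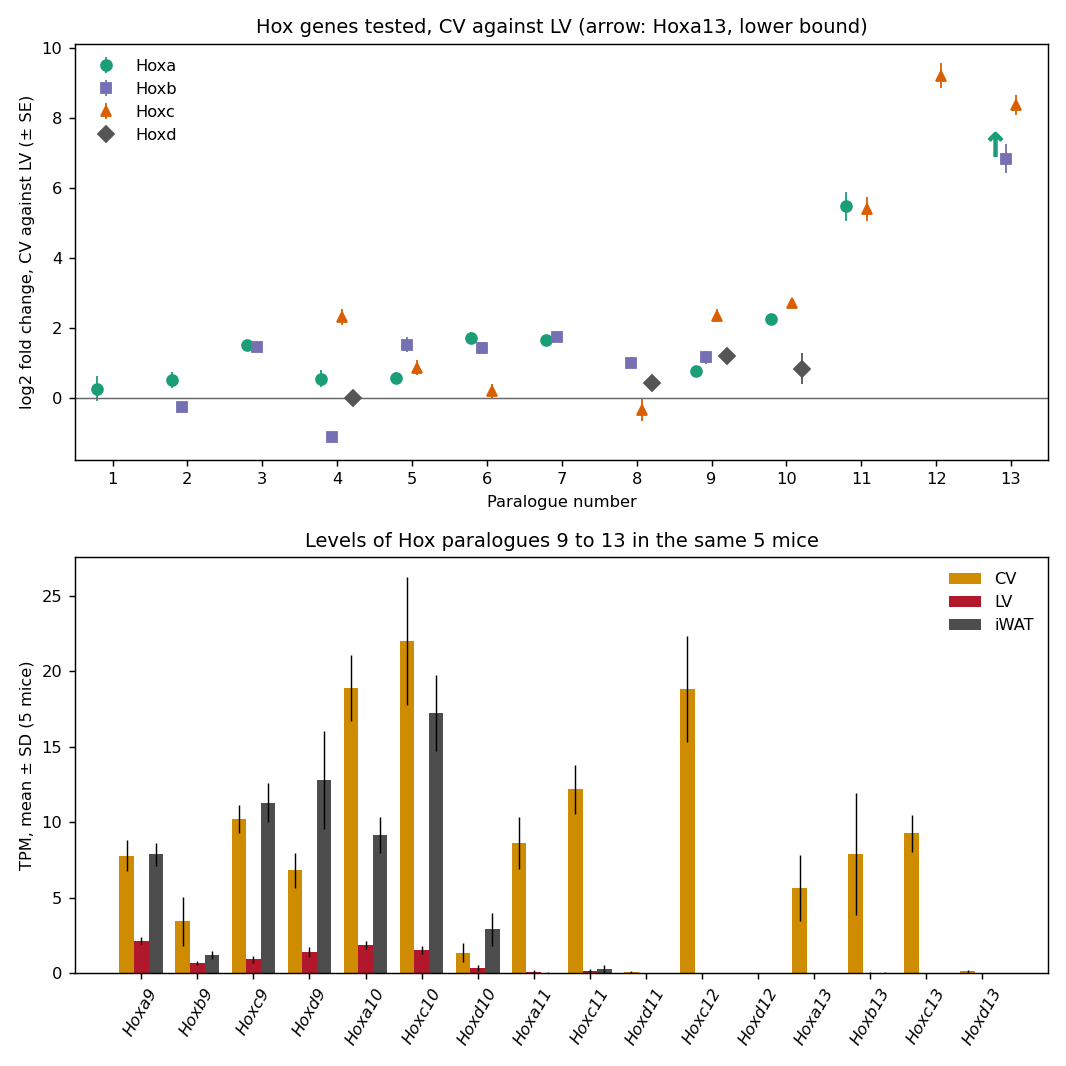
Upper plot, log2 fold change of CV against LV (± SE) of the tested Hox genes by paralogue number, with cluster shown by colour and shape and the arrow marking the lower bound for *Hoxa13*. Lower plot, mean TPM (± SD, 5 mice) of paralogues 9 to 13 in CV, LV and iWAT. The differences are larger for paralogues 11 to 13, where LV and iWAT bars are near 0 and *Hoxd11* to *Hoxd13* are near 0 in all 3 tissues.

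Other positional genes, nearly all of them transcription factors, moved the same way. Of 23 tested, 22 rose and none fell (median 2.12). The T-box factor *Tbx15* measured 139, 117, 107, 145 and 117 CPM in CV and 5.93, 7.64, 3.72, 6.10 and 5.49 CPM in LV. The somite factors *Meox1* and *Meox2* rose by 4.05 and 4.88. In TPM, *Tbx15* stood at 64.7 in CV and 10.18 in iWAT. Several of these factors are also used in muscle or connective tissue. The cofactors that bind DNA with Hox proteins split: of 9, *Meis2*, *Meis3* and *Pknox2* rose (1.74, 1.03 and 1.92) and 4 fell, *Pbx2*, *Meis1*, *Pknox1* and *Pbx4* (-1.07, -0.66, -0.83 and -1.50). Their median was -0.28 with TMM, 0.02 with total counts and 0.77 on TPM, so no common direction could be given.

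Cell-wide programmes differed as well. Of 12 hypoxia response genes 9 rose and 1 fell (median 0.79), with the mitophagy receptor *Bnip3* and adrenomedullin, *Adm*, rising by 2.72 and 2.97, while *Car9* fell by 0.80. Of 12 tested interferon response genes 9 fell and 1 rose (median -1.34 with TMM and -0.26 on TPM). *Rsad2*, an antiviral enzyme, measured 8.29, 9.61, 9.27, 5.71 and 8.04 CPM in CV and 119, 104, 113, 115 and 114 CPM in LV, and *Isg15* fell by 3.67, whereas *Ifit3* rose by 1.57. Of 10 temperature responsive genes 3 rose and 7 fell, with a median of -0.95 that turned to 0.17 on TPM. The cold-inducible RNA-binding proteins went opposite ways with TMM. *Cirbp* measured 218, 189.9, 188.96, 208 and 207 CPM in CV and 50.6, 50.0, 49.8, 55.1 and 45.3 CPM in LV, and *Rbm3* measured 485, 489, 473, 518 and 487 CPM in CV and 969.5, 978, 1042, 921 and 903 CPM in LV. The heat shock genes were split in the same manner, with *Hspa1a* up by 3.33 and *Hsp90aa1* down (-2.27).

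Among 11 immediate early genes 6 rose and 3 fell, *Jun* and *Egr1* by 2.27 and 1.38 and *Btg2* by -2.07. *Jun* measured 88.3, 84.6, 87.3, 70.3 and 75.0 CPM in CV and 16.4, 15.0, 16.3, 15.6 and 20.7 CPM in LV, with no overlap. The time from death to freezing of each tissue is not given in the sources used here. Of 16 ribosomal protein genes 11 fell and none rose with TMM (median -0.61), a direction that turned on TPM (0.50). *Rps18* measured 574, 536, 564, 660.3 and 615 CPM in CV and 1033, 1139.8, 1144, 1291 and 1222 CPM in LV. Respiratory chain genes were nearly level, with 2 of 20 higher and 2 lower with TMM (median 0.14). The first count was 11 with male CV libraries and 20 on TPM, where the median of all genes was itself 1.08 and that of these genes 1.24. Among those called with TMM were *Ndufv1* (0.56), *Cox6c* (-0.57) and *Cycs* (-0.59).

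The same contrast was available in 3 other groups of females, none of which shares a mouse with this comparison, each tested against its own LV: 5 WT mice with ICV leptin, and 4 mice each of BMAd-*Pnpla2*-/- (KO) with ICV PBS and with ICV leptin. Genes higher and lower in CV numbered 4814 and 4614 in WT mice with leptin, 4977 and 4666 in KO mice with PBS and 4645 and 4169 in KO mice with leptin. Of the 5075 genes higher at baseline, 5051, 5067 and 5041 had the same sign in these groups, and of the 4698 lower genes 4674, 4685 and 4645 did. In all 4 groups 4225 genes (83.3%) were called higher and 3837 (81.7%) lower. The CV and LV libraries of the other groups also differed by library set and depth. *Rpl31-ps12* was at 11.20, 10.32 and 9.26 in them, in the same order, so agreement between groups cannot tell tissue from library set. List medians kept their sign in every group for all but a few lists. Those that did not were monocyte, dendritic cell, respiratory chain, central glia and osteoclast genes, the last at -1.10 at baseline and 0.32 in KO mice with leptin. Medians of cell cycle genes were -5.28 at baseline, -4.98 in KO mice with PBS, -3.93 in WT mice with leptin and -3.99 in KO mice with leptin.

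Values of some lipolysis genes were less alike over the 4 groups. *G0s2* changed by 0.59 at baseline and by 0.34 in KO mice with PBS, against -1.24 in WT mice with leptin and -2.06 in KO mice with leptin, and *Mgll* by 1.81, 1.54, 0.40 and 0.36 in the same order. *Plin1* changed by 6.85, 6.68, 6.76 and 5.90. *Hoxc13*, for comparison, changed by 8.37, 8.17, 9.13 and 9.17. The differences between groups were not tested here.

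**Figure D5:**
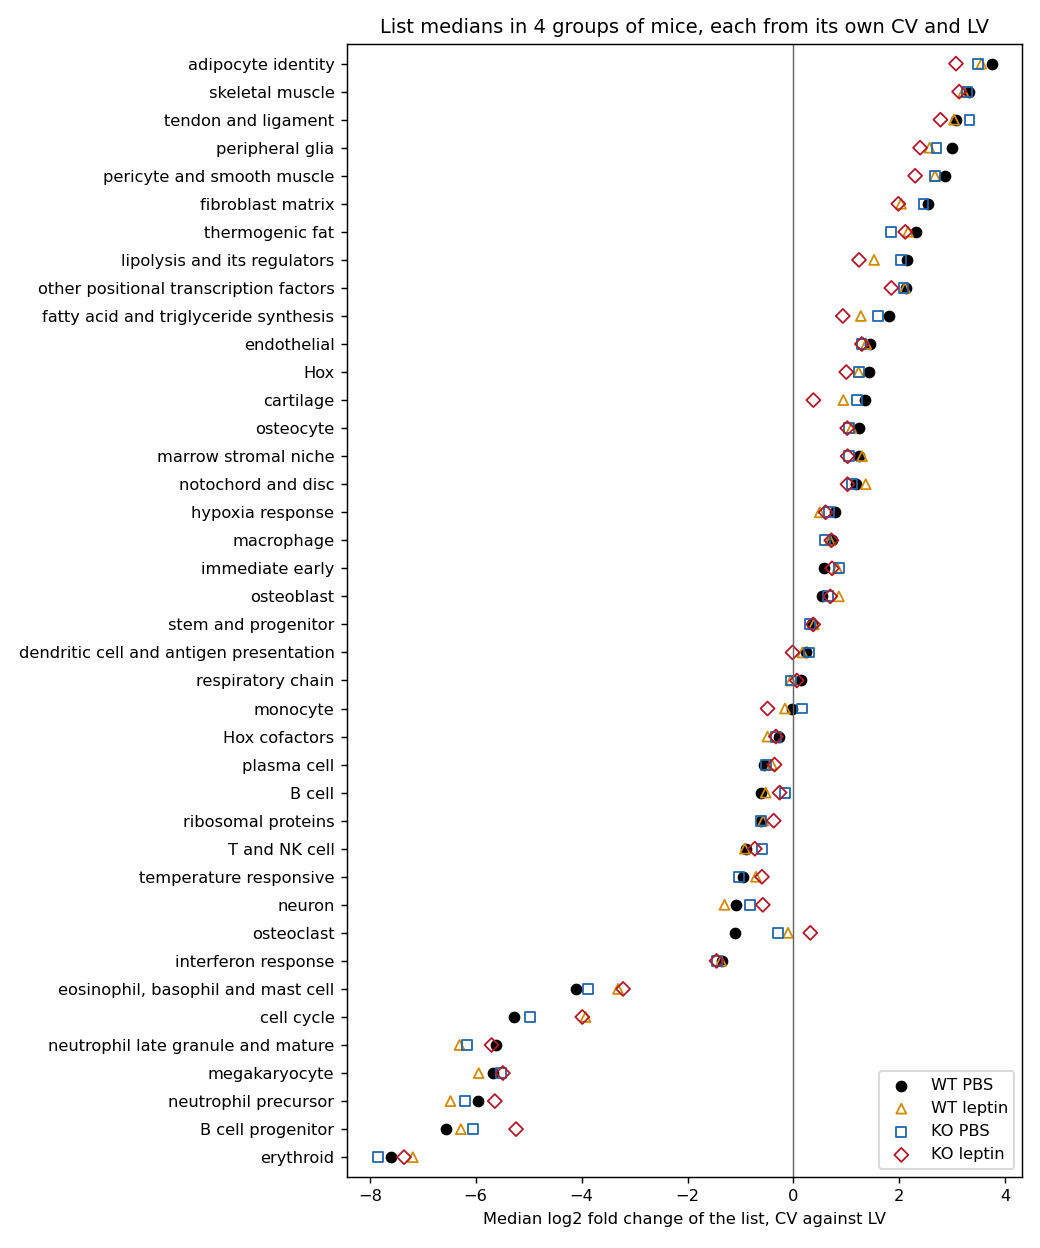
Median log2 fold change of each gene list, CV against LV, in 4 groups of female mice that share no animal (5, 5, 4 and 4 mice for WT PBS, WT leptin, KO PBS and KO leptin). Adipocyte, muscle and Hox medians are above 0 and blood precursor medians far under 0 in all groups, while the medians for cell cycle, cartilage and fatty acid synthesis lie nearer 0 in the leptin groups and the osteoclast median crosses 0.

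Since the female CV and LV libraries also differed by library set, CV libraries of the 5 male WT mice with PBS, which were like the LV libraries in *Rpl31-ps12*, were set in place of the female CV libraries, without a block and with sex then confounded with tissue. Against the same LV libraries, 5015 genes were then higher in CV and 4648 lower. The change of *Plin1* was then 6.49, that of *Ahsp* -10.24 and that of *Hoxc13* 8.35. *Rpl31-ps12*, at 10.16 in the paired comparison, was at -2.51, and *Asdurf*, with 131 counts in female CV, had no count in LV or in those male CV libraries.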

How the data were processed

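Poly(A) RNA of CV and LV of 5 female WT mice was sequenced by 100 base pair paired reads. The authors deposited 1 table of estimated counts and 1 of TPM per gene, made from reads cleaned with SOAPnuke and mapped with HISAT and Bowtie2 to GRCm38.p6 (the processing notes also name GRCm39); the counting tool is not given in the sources used here. Of 74693 features, 39063 carry a numeric gene ID and all counts lie on these; 51 counts in 6 genes were not whole and were rounded.

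From these files, the counts were tested for genes averaging 0.4 TPM or more across the 10 libraries, with edgeR (4.0.16, R 4.3.3), using TMM factors, the quasi-likelihood test, mouse as a block and Benjamini-Hochberg adjustment, with limma (3.58.1) on log2 of TPM plus 1 or 0.1 and DESeq2 (1.42.0) as alternatives. Other alternatives were RLE and total count scaling, other filters, LV thinned to CV depth, a log2 threshold of 1, each mouse left out and either set of mice alone. Male CV libraries in place of the female ones were added after the data had been seen. Tables and figures were made with Python 3.11.15, pandas 2.3.3 and matplotlib 3.10.9. On simulated counts with 200 of 14554 genes changed by 1.5 on the log2 scale in this comparison, 190 to 196 were recovered and 2.56% to 5.31% of calls were false. All other genes were level between tissues there, whereas 34.9% and 32.3% of tested genes were called higher and lower in the data. The simulated rates therefore do not carry over to this comparison. The 5 CV and LV pairs come from the same animals by their mouse numbers. Deviations from the tissue means correlated within a mouse at 0.05, 0.31, -0.10, -0.01 and 0.24 for mice 1 to 5. The highest correlation of each CV with LV of another mouse was 0.16, 0.10, 0.17, 0.28 and 0.29, so these values do not show the pairing. No library was a copy of another. Counting intervals and floors cover counting error only.

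The comparison, the gene lists and the naming rule were chosen with earlier results of these data known. Named were Hox genes of at least 0.4 TPM in either tissue, each list's defining markers with up to 4 of its largest changes without overlap at 5 TPM or more, up to 3 members called against their list, and the 10 largest changes each way. *Abhd5*, *Adrb1*, *Cebpb*, *Fabp5*, *Pbx4*, *Olig1* and *Trp63*, where not covered by it, were named after their values were seen, to complete small counts, as were *Myh1*, *Myh2*, *Asdurf*, *Gm4963*, *Gm13653*, *Gm43247* and *Hoxd11* to *Hoxd13*. Where not covered by the rule, the same holds for *Ppargc1a*, *Kcnk3*, *Otop1*, *Prdm16*, *Vsig4*, *Cd163*, *Siglec1*, *Mertk*, *Hmox1* and the monocyte genes that rose. No table of proteins was used here. A few genes are not reported here.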

Additional observations from a re-analysis of the deposited data

Results flagged for a closer look

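A library stood apart from the others of its tissue by Dixon's test in 32 of 360 groups of 5 values (8.89%). These groups cover 180 of the genes named in the text. Chance flags about 1 in 20 groups, and the genes of a list are not independent. In CV, mouse 1 lay above the others at 27.8 CPM for *Hoxa10* (median 22), 39.9 CPM for *Sox6* (median 36.4) and 219 CPM for *Dpt* (median 171). In CV, mouse 1 lay below the others at 38.1 CPM for *Pbx2* (median 41). In LV, mouse 1 lay above the others at 14 CPM for *Sele* (median 12) and 0.373 CPM for *Npy* (median 0.109). In CV, mouse 2 lay above the others at 1743 CPM for *Fabp4* (median 1380.0), 61.9 CPM for *G0s2* (median 38.6) and 199 CPM for *Lepr* (median 132). In CV, mouse 3 lay above the others at 0.258 CPM for *Igll1* (median 0), 289 CPM for *H2-Ab1* (median 217), 776 CPM for *Acp5* (median 319.7), 1029 CPM for *Ctsk* (median 459.7), 54.2 CPM for *Atp6v0d2* (median 21.6), 14.5 CPM for *Meis3* (median 9.19) and 129.7 CPM for *Rpl31-ps12* (median 96.1). In LV, mouse 3 lay below the others at 6.08 CPM for *Plin4* (median 11.3). In CV, mouse 4 lay above the others at 92.3 CPM for *Kitl* (median 78.1) and 25.3 CPM for *Pknox1* (median 23.6). In CV, mouse 4 lay below the others at 20.1 CPM for *Folr2* (median 24.4). In LV, mouse 4 lay above the others at 464 CPM for *Rhd* (median 327), 597 CPM for *Hemgn* (median 432) and 2598 CPM for *Cd24a* (median 2321). In LV, mouse 4 lay below the others at 0.717 CPM for *Adm* (median 1.37). In CV, mouse 5 lay above the others at 408 CPM for *Hba-a1* (median 196) and 0.745 CPM for *Npy* (median 0.403). In LV, mouse 5 lay above the others at 4.99 CPM for *Lyve1* (median 3.47), 4.53 CPM for *Cd28* (median 3.78), 175.7 CPM for *H2-Ab1* (median 133), 79.98 CPM for *Pecam1* (median 71.3), 3.66 CPM for *Mfap5* (median 1.31) and 20.7 CPM for *Jun* (median 16.3). The osteoclast genes *Acp5*, *Ctsk* and *Atp6v0d2* in CV stood apart in the same mouse.

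The change of *G0s2* from LV to CV was 0.59 in WT mice with PBS, where every mouse was higher in CV, and -2.06 in KO mice with leptin, where every mouse was lower. The difference between these groups was not tested.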

How the results depend on the processing

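The counts of 5075 higher and 4698 lower genes stayed within 1.5 times of these values under RLE or total count scaling, DESeq2, other filters, thinning, either set of mice and the male CV libraries. The exceptions were limma on TPM, with 9813 and 1605 at a pseudocount of 1 and 10161 and 1707 at 0.1, and a log2 threshold of 1, with 2847 lower. Leaving out each mouse gave 5020 to 5083 higher genes, 4646 to 4717 lower genes, 22 to 24 higher Hox genes (23 with all mice) and 533 to 544 called list genes (540 with all mice). Without the replicate block for mouse, 5077 were higher, 4684 lower, 25 Hox genes higher and 540 list genes called. The pairing moved no such count by over 1.5 times. Of the named genes checked for it, *Ifitm5* (-0.48) and *Mepe* (0.83) lost their call without the pairing.

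With limma on TPM, which moved the median of all tested genes to 0.90 and 1.08 at pseudocounts of 1 and 0.1, these genes changed sign, with their log2 fold changes at both pseudocounts: *Hcar2* (0.15 and 0.21), *Dgat1* (0.056 and 0.057), *Dio2* (0.34 and 0.48), *Adgre1* (0.48 and 0.50), *Cd79a* (0.42 and 0.43), *Cd3e* (0.67 and 1.00), *Vwf* (0.0044 and 0.0014), *Sele* (0.31 and 0.39), *Bglap* (0.66 and 0.66), *Bglap2* (0.31 and 0.31), *Ifitm5* (0.57 and 0.59), *Ctsk* (0.28 and 0.28), *Krt18* (0.41 and 0.44), *Cycs* (0.50 and 0.51), *Cox6c* (0.64 and 0.64), *Rps18* (0.21 and 0.21), *Rbm3* (0.17 and 0.17), *Car9* (0.15 and 0.20), *Meis1* (0.19 and 0.23), *Pbx2* (0.027 and 0.028) and *Pknox1* (0.24 and 0.26). *Hoxc8* did so at 0.1 only (0.71). With male CV libraries, *Col1a1* was at -0.66, *Dmp1* at -0.18, *Rpl31-ps12* at -2.51 and *Asdurf* at 0. *Aqp4* was at -0.97 in mice 4 and 5 alone. The causes were not tested. Depth limits the genes with few counts in 1 tissue, and differences of under 0.5 were not called.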
